A study of Mus musculus with 19 samples.

Results

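De novo lipogenesis is the making of fatty acids from glucose carbon, and 10 genes of this pathway were followed here in the inguinal fat of mice with a tumour. They were Acly, Acaca, Acacb, Fasn, Elovl6, Scd1, Scd2, Me1, Srebf1 and Mlxipl, taken by symbol from a table of 24844 genes, and all 10 were among the 17013 genes with enough signal to be tested. In fat cells, ATP citrate lyase (Acly) cuts citrate exported from mitochondria into acetyl-CoA. Acetyl-CoA carboxylase (Acaca, with its mitochondria-bound isoenzyme Acacb) turns it into malonyl-CoA, and fatty acid synthase (Fasn) joins malonyl units into palmitate with NADPH that malic enzyme (Me1) helps to supply. Elovl6 lengthens palmitate, and the stearoyl-CoA desaturases Scd1 and Scd2 place a double bond. The transcription factors SREBP1 (Srebf1) and ChREBP (Mlxipl) switch the pathway on in response to insulin and to glucose, and white fat is known for a high output of these mRNAs in the fed state.

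The 19 mice were wild-type C57BL/6JRj, were kept at 29 °C (thermoneutrality, where mice need little heat production) and were acclimatized for 14 days. Healthy mice (n = 4) received a control adeno-associated virus (AAV) and PBS. The other groups carried CHX207 fibrosarcoma cells, a mouse sarcoma line, placed in the right gastrocnemius muscle: tumour controls with control AAV (n = 5), mice with an AAV that carries the metabolic hormone FGF21 (n = 5), and mice given efruxifermin, an engineered long-acting FGF21 analogue, at 2 mg/kg by intraperitoneal injection on 6 occasions (n = 5). Virus and drug were started 9 days before the tumour cells, and whole inguinal fat was taken 14 days after them. Whether the efruxifermin mice were given the control virus as well is not stated in the labels, which give neither sex nor age. CHX207 is 1 line, the virus was given into the blood, and a tumour in the leg lies close to the inguinal depot, so local and systemic influences on this fat cannot be told apart. The series' title names FGF21 and the metabolic dysfunction of cancer-associated cachexia, the wasting seen with tumours.

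Values are RPM, the reads of a gene scaled to the size of its library, from 3' end sequencing in which each transcript gives reads from its end, so no division by length was made. Depth was 2011068 to 3693864 reads per library, and 12537 to 17040 genes were detected per library. Libraries differed in tissue make-up. A score was taken for each marker list as the mean log2(RPM + 1) of its genes. The B cell score, a mark of the inguinal lymph node, was above 3 in 11 of 19 libraries (4 of 5 tumour controls, 3 of 5 efruxifermin mice, and 2 each of the healthy and FGF21 AAV mice). The healthy libraries held 343 to 40095 RPM of the 11 skeletal muscle markers, the tumour control libraries 23.5 to 107165, and those with FGF21 AAV and efruxifermin 3.81 to 2374 and 7.28 to 36381. Tumour control 4 had the highest muscle score, 12.8, healthy mouse 1 had 11.4, and efruxifermin 3 had 10.5 with the fewest detected genes. Results are also given without tumour control 4 and efruxifermin 3, a pair chosen after the data were seen, and for Scd1 without healthy mouse 1. Healthy mouse 1, whose muscle score was above that of efruxifermin 3, stayed in the fit without the pair, as did tumour control 2. Tumour control 2 had the highest B cell score of the 19 libraries, 7.95, and the lowest adipocyte score, 6.09. All 10 adipocyte markers were present in every group, and their summed level ran from 10907 to 34079 RPM in healthy mice and from 1536 to 11251 in tumour controls. With FGF21 AAV it ran from 13735 to 41213 RPM, and with efruxifermin from 3724 to 32734. The mammary epithelium list, whose cells are also lipogenic, summed to 1034 to 1921, 454 to 867, 687 to 2854 and 658 to 1831 RPM in the same order, with all 10 of its markers present, and the tumour controls lay below every healthy mouse. The same held for the 7 stromal progenitor markers, at 1148 to 2531 RPM in healthy mice and 390 to 854 in tumour controls, against 714 to 1517 with FGF21 AAV and 296 to 1465 with efruxifermin. The 8 liver markers summed to 44.5 to 129 RPM in healthy mice and 0.38 to 23.2 in tumour controls, where Ttr and Apob were at 0, against 89.1 to 535 with FGF21 AAV and 52.7 to 296 with efruxifermin, so that the tumour controls lay below all other mice. Gm42418, a gene model that overlaps ribosomal RNA sequence, took 1.93% to 4.24% of the healthy and 3.81% to 8.79% of the tumour control reads. Its share was 2.06% to 15.4% with FGF21 AAV and 3.62% to 17.3% with efruxifermin, highest in efruxifermin 3. The 6 brown adipocyte markers summed to 11.9 to 206 RPM in healthy mice and 3.4 to 196 in tumour controls. With FGF21 AAV they summed to 11.9 to 116 RPM, and with efruxifermin to 17.1 to 115. Of them Ucp1 and Elovl3 were at 0 in healthy mice, Ucp1 in tumour controls, Dio2 with FGF21 AAV and Elovl3 with efruxifermin. The part of these make-up differences in the results below was not tested, except where a value is given.

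Across the 19 mice the 10 genes had mean levels from 78.1 to 3978 RPM, and they varied widely between mice of the same group. The highest mean level was that of Scd1, at 3978 RPM, followed by Fasn at 2461, Acaca at 662 and Acly at 572. Elovl6 (308) and Me1 (302) came next, then Acacb (109), Srebf1 (108), Scd2 (89.3) and Mlxipl (78.1). The neighbours Elovl6 and Me1, Acacb and Srebf1, and Scd2 and Mlxipl lay well within the spread over mice of either gene. The ratio of the highest to the lowest mouse ran from 6.23 for Srebf1 to 30.7 for Me1, and exceeded 10 for 7 of the 10 genes. Summed over the pathway, the mean was 7011 RPM in healthy mice and 4130 in tumour controls, against 11061 with FGF21 AAV and 12140 with efruxifermin. By limma, none of the 10 genes passed an adjusted p of 0.05 in any of the 6 comparisons, so the differences below are given as values with their errors.

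**Figure D1:**
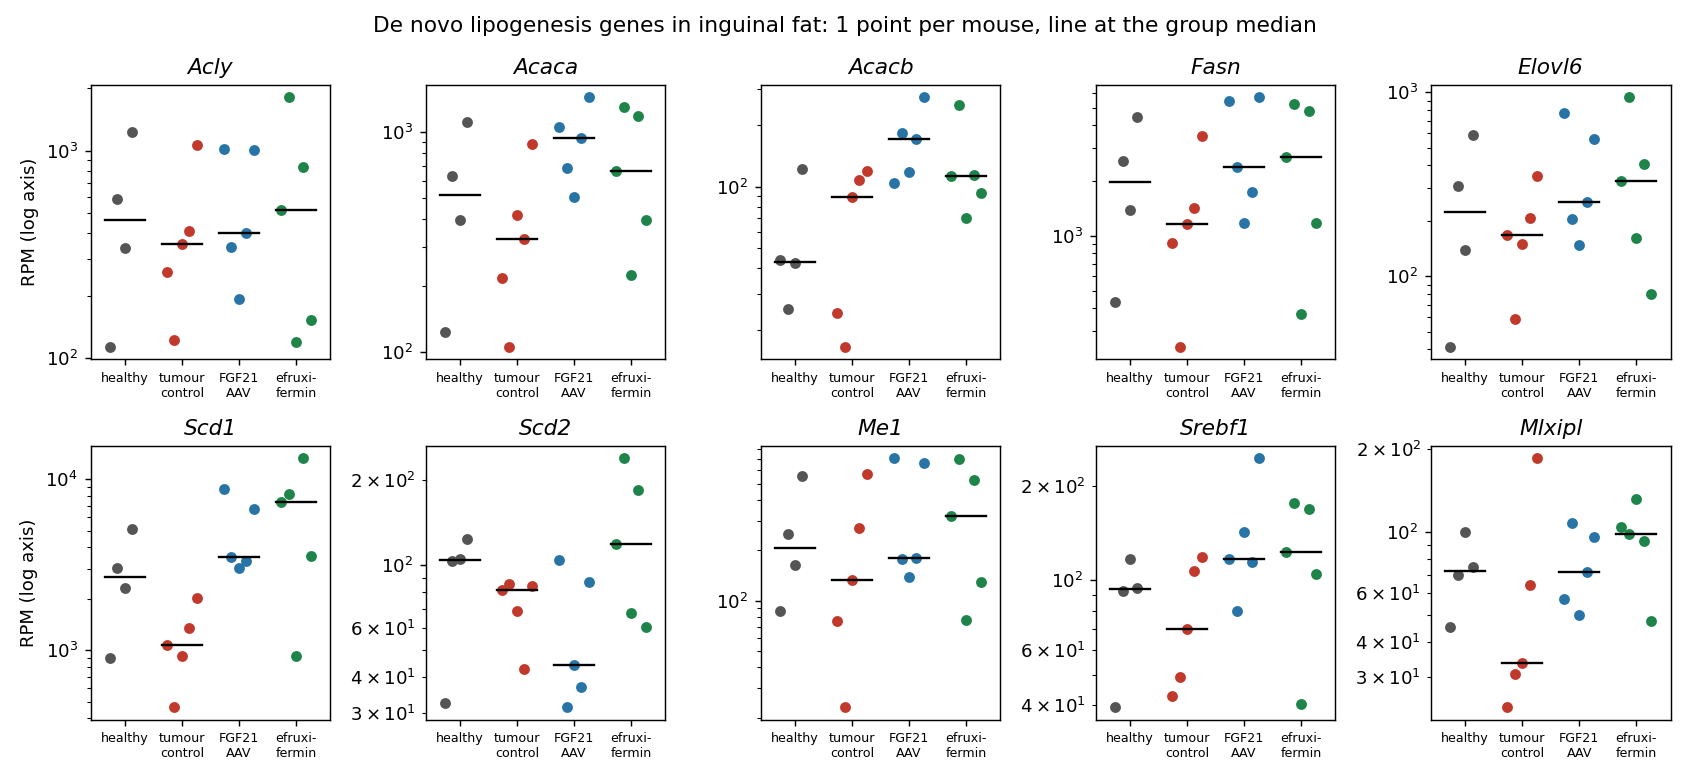
Level of each of the 10 genes in RPM (log axis, a separate scale per gene) by group, with 1 point per mouse and a line at the group median. The 5 FGF21 AAV mice all lie above the 5 tumour controls for Scd1, from 3023 against at most 2008 RPM, while the groups overlap for the other 9 genes.

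Tumour controls were compared with healthy mice to see what the tumour does to the pathway in this depot. For 9 of 10 genes the tumour controls were lower on the RPM scale, with a median log2 change of -0.36 beside -0.16 over all genes tested. In RPM 38.8% of all genes had a positive change, and 1 of the 10, Acacb, did. Relative to the adipocyte markers all 10 were higher, where the median log2 change of all genes tested was 1.13. The largest difference was that of Scd1, the main desaturase of white fat. Scd1 was at 905, 3007, 2313 and 5096 RPM in the 4 healthy mice and at 1074, 464, 920, 1340 and 2008 RPM in the 5 tumour controls. The groups overlapped because healthy mouse 1 lay below 4 of the tumour controls. The log2 change was -1.19 ± 0.60 (SE), with an adjusted p of 0.625 by limma and a 95% interval of -2.44 to 0.06. Without healthy mouse 1, the healthy mouse with the highest muscle score, it was -1.65 (adjusted p = 0.620 by limma).

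The other enzymes differed by less between tumour controls and healthy mice. The log2 changes were -0.69 ± 0.75 for Me1, -0.62 ± 0.76 for Fasn, -0.48 ± 0.58 for Acaca and -0.24 ± 0.73 for Acly (SE). They were -0.21 for Scd2, -0.16 for Elovl6, -0.49 for Mlxipl and -0.15 for Srebf1, while Acacb was at 0.15. Every one of these 9 intervals included 0. By limma 0 of 10 genes were called, beside 0% of all genes called higher and 0.047% called lower. None had an unadjusted p under 0.05, a mark that 0.823% of all genes passed upwards and 7.49% downwards. edgeR and DESeq2 on the recovered reads also called 0 of 10. edgeR called 0.00588% of all genes, and DESeq2 0.293% of the 13310 genes for which it gave an adjusted p. In none of the 10 did the groups separate, as they did for 0.212% of all genes upwards and 3.66% downwards.

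The adipocyte marker score was 9.40 ± 0.65 in healthy mice and 7.90 ± 1.14 in tumour controls (SD, n = 4 and 5). It fell by 1.50 between them without overlap (exact permutation test, two-sided, p = 0.0159, adjusted p = 0.0476 over 6 comparisons, the smallest p this design allows being 0.0159). The test was chosen after the data were seen, and it passed 0.05 after adjustment in 0 of 10 alternatives. All 10 lipogenic genes lay above the score difference of -1.50. Scaled to the adipocyte markers instead of to all reads, the log2 changes of the 10 genes ran from 0.31 for Scd1 to 1.62 for Acacb. The median of all genes tested was 1.13 on that scale, and none of the 10 passed limma. Since whole tissue was sequenced, fewer fat cells and less RNA per fat cell cannot be told apart in any of these values.

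FGF21 AAV was compared with tumour control to ask what the hormone does in mice with the tumour. On the RPM scale 9 of 10 genes were higher under FGF21 AAV, Scd2 being the exception, where 47.2% of all genes were, with a median log2 change of 1.07 beside -0.048 over all genes. Relative to the adipocyte markers 9 of 10 were lower, Scd1 being the exception, where the median log2 change of all genes was -1.77. By limma none of the 10 was called, beside 0.517% of all genes called higher and 0.047% called lower. At an unadjusted p under 0.05, 4 of 10 were higher, Scd1, Acacb, Acaca and Srebf1, beside 8.82% of all genes, and 0 were lower, beside 7.14%. edgeR called 0 of the 10 and 0.047% of all genes. DESeq2 called Scd1 alone of the 10, and 488 genes in all, 6.89% of the 7085 for which it gave an adjusted p.

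Scd1 stood at 8707, 3517, 3023, 3314 and 6691 RPM under FGF21 AAV, so every treated mouse exceeded the highest tumour control. The log2 change was 2.14 ± 0.57 (SE), a 4.40-fold difference, with an adjusted p of 0.0738 by limma. It was the 1 gene of the 10 whose groups did not overlap, beside 2.71% of all genes that lay higher without overlap and 0.623% that lay lower. The call depended on the method. DESeq2 gave an adjusted p of 0.00545, limma on these 2 groups alone gave 0.0446, and limma without tumour control 4 gave 0.0352, but edgeR gave 0.136 and limma with no filter on low values gave 0.167. With the B cell and muscle scores as covariates the log2 change was 1.89 and the limma adjusted p was 0.701. Leaving out any 1 of the 10 mice gave limma adjusted p of 0.0352 to 0.268, the highest being without tumour control 2, and 1 of the 10 (tumour control 4) took it past 0.05. Without tumour control 4 and efruxifermin 3 limma gave 0.00985, where 4.17% of all genes were called higher. The adipocyte marker score was 9.95 ± 0.67 under FGF21 AAV (SD, n = 5), 2.05 higher than in tumour controls without overlap (exact permutation test, p = 0.00794, adjusted p = 0.0476, the smallest p possible being 0.00794). That test was chosen after the data were seen. Over 11 alternatives the score difference ran from 1.60 to 2.31 and passed 0.05 after adjustment in 5. The Scd1 difference was thus about the size of the marker difference, and scaled to the markers it was 0.089 and was not called. On that scale Acly and Scd2 were called lower, as were 48.7% of all genes.

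Both carboxylases were higher on the RPM scale by similar amounts. Acacb, whose product malonyl-CoA restrains fatty acid entry into mitochondria, was at 24.2, 16.6, 89.5, 107 and 119 RPM in tumour controls. Under FGF21 AAV it was at 104, 182, 117, 171 and 272 RPM. Only the lowest treated mice overlapped the highest controls, the log2 change was 1.54 ± 0.49 (SE) and the adjusted p by limma was 0.136. Without tumour control 4 the log2 change was 1.78, with an adjusted p of 0.0410 by limma. Without tumour control 2 it was 1.12 (adjusted p = 0.412 by limma), and with the B cell and muscle scores as covariates it was 0.67 (adjusted p = 0.994 by limma).

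Acaca, the cytosolic carboxylase that feeds fatty acid synthase, was at 216, 106, 420, 327 and 884 RPM in tumour controls and at 1047, 687, 508, 933 and 1433 RPM under FGF21 AAV. Tumour control 5 alone reached into the range of the treated mice. The log2 change was 1.49 ± 0.55 (SE), with an adjusted p of 0.190 by limma. The scaling of libraries can move the ratio of Acaca to Acacb within a library only through the 1 RPM added to each value. On the log2 scale this ratio was 2.48 ± 0.60 in tumour controls and 2.43 ± 0.54 under FGF21 AAV (SD, n = 5 each, exact permutation p = 0.913).

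Fasn, the multi-domain synthase, was at 914, 247, 1163, 1424 and 3484 RPM in tumour controls and at 5469, 2379, 1166, 1741 and 5692 RPM under FGF21 AAV. Tumour controls 4 and 5 lay above the lowest treated mouse. The log2 change was 1.37 ± 0.71 (SE; adjusted p = 0.353 by limma). Me1 was higher by 1.16 ± 0.71, Elovl6 by 0.98 ± 0.64 and Acly by 0.49 ± 0.69 (log2 ± SE), with adjusted p of 0.439, 0.474 and 0.776 by limma. Acly thus showed the smallest difference of the enzymes that were higher, and its groups covered 123 to 1060 RPM and 194 to 1019 RPM. With the B cell and muscle scores as covariates the log2 changes were 0.95 for Acaca, 0.71 for Fasn, 0.52 for Me1, 0.34 for Elovl6 and -0.35 for Acly, and none passed limma.

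The regulators differed less than Scd1. Srebf1 was at 42.7, 49.2, 69.8, 107 and 119 RPM in tumour controls and at 117, 80.1, 143, 114 and 245 RPM under FGF21 AAV. The 2 highest controls overlapped the treated mice, and the log2 change was 0.85 ± 0.40 (SE; adjusted p = 0.294 by limma). Mlxipl was higher by 0.57 ± 0.42 (SE; adjusted p = 0.541 by limma). The 3' reads do not tell the 1a and 1c transcripts of Srebf1, or the alpha and beta transcripts of Mlxipl, apart.

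**Figure D2:**
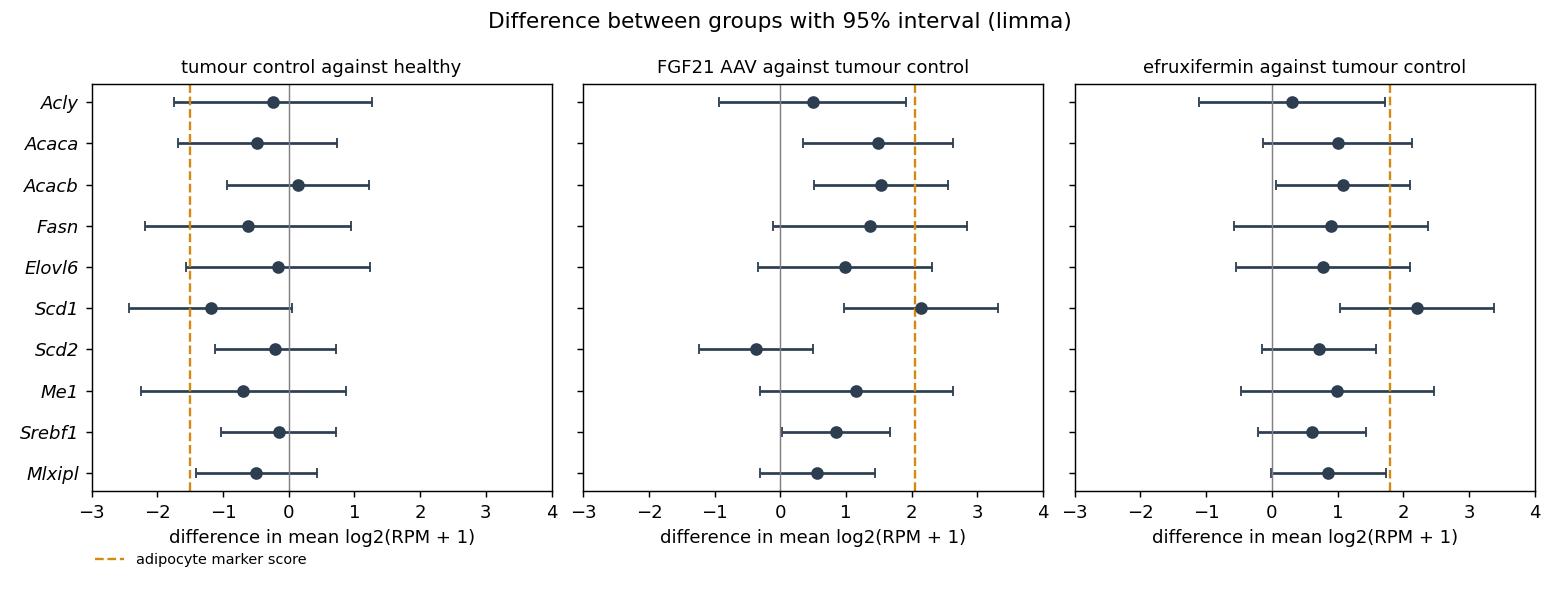
Difference in mean log2(RPM + 1) of each gene, with its 95% interval from limma, for tumour control against healthy and each treatment against tumour control; the dashed line marks the difference in the adipocyte marker score. All 10 genes lie to the right of the line at -1.50 in tumour controls. Under the treatments Scd1 alone lies to the right of the lines at 2.05 and 1.80. On the scale of the markers, genes to the left of a line are lower and genes to its right higher. The median log2 change of all genes on that scale was 1.13, -1.77 and -1.66, in the order of the panels.

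Efruxifermin against tumour control used the same 5 tumour controls, so the 2 sets of differences are not independent. On the RPM scale all 10 genes were higher, where 41.7% of all genes were. Their median log2 change was 0.88 beside -0.14 over all genes. Relative to the adipocyte markers 9 of 10 were lower, where the median log2 change of all genes was -1.66. Efruxifermin mice had Scd1 at 7295, 8201, 920, 13236 and 3545 RPM, of which 4 exceeded every tumour control and efruxifermin 3 lay among them. The log2 change was 2.21 ± 0.57 (SE), a 4.61-fold difference, with an adjusted p of 0.0700 by limma. DESeq2 gave an adjusted p of 0.000534, edgeR 0.0722, limma on the 2 groups alone 0.318 and limma with no filter on low values 0.168. With the B cell and muscle scores as covariates the log2 change of Scd1 was 2.21 (adjusted p = 0.0572 by limma). Scaled to the adipocyte markers it was 0.40 and was not called (adjusted p = 0.594 by limma). Efruxifermin 3 had the highest muscle score of its group and also the lowest adipocyte score, 7.54. Without it the log2 change of Scd1 was 2.80 with an adjusted p of 0.00237 by limma. Leaving out any 1 of the 10 mice gave limma adjusted p of 0.00237 to 0.242, the highest being without tumour control 2.

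By limma no gene of the 10 was called under efruxifermin against tumour control, beside 0.676% of all genes called higher and 0.0882% called lower. edgeR called 0 of the 10 and 0.27% of all genes. DESeq2 called Scd1, and 399 genes in all, 2.61% of the 15264 for which it gave an adjusted p. Without tumour control 4 and efruxifermin 3 limma called Scd1 and 2.93% of all genes higher. Scaled to the adipocyte markers Acly was called lower, as were 43.5% of all genes. At an unadjusted p under 0.05, 2 of 10 were higher, Scd1 and Acacb, beside 6.53% of all genes, and 0 were lower, beside 7.35%. Acacb was at 112, 249, 70.2, 114 and 92.7 RPM, of which efruxifermin 2 stood far above the rest. Its log2 change was 1.08 ± 0.49 (SE; adjusted p = 0.331 by limma). Acaca differed by 1.00 ± 0.55, Me1 by 1.00 ± 0.71, Fasn by 0.90 ± 0.71, Mlxipl by 0.86 ± 0.42, Elovl6 by 0.78 ± 0.64, Scd2 by 0.72 ± 0.42, Srebf1 by 0.60 ± 0.40 and Acly by 0.31 ± 0.69 (log2 ± SE). The limma adjusted p of these 8 genes ran from 0.367 to 0.878, and in 0 of 10 genes did the groups separate, where 1.06% of all genes lay higher without overlap and 0.582% lower. The adipocyte score was 9.70 ± 1.24 (SD, n = 5), 1.80 higher than in tumour controls (exact permutation p = 0.0476, adjusted p = 0.0952).

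Among libraries with a B cell score of 3 or below, which leave 1 tumour control, Scd1 was higher under efruxifermin by 0.95 and under FGF21 AAV by 1.67. Among those above 3 the log2 changes were 2.89 and 2.39, with limma adjusted p of 0.0230 and 0.174. Fasn, Acacb, Acly, Srebf1 and Me1 were below 0 under efruxifermin in the libraries with the low score, from -0.27 to -0.78, where the single tumour control was the library with the most muscle RNA.

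The 2 treatments were next set against each other. Scd2, the desaturase isoform that is dominant in brain and present in fat, was the 1 gene of 10 with an unadjusted p under 0.05 (1.69% of all genes were higher and 3.87% lower by that measure). It was at 104, 31.3, 44.1, 37.1 and 86.7 RPM under FGF21 AAV and at 118, 238, 67.4, 184 and 60.2 RPM under efruxifermin. The highest virus-treated mice overlapped the lowest drug-treated ones, the log2 change was 1.09 ± 0.42 (SE), the 95% interval was 0.22 to 1.95, and the adjusted p by limma was 0.820. Scd1 differed by 0.07 ± 0.57 (SE), with an interval of -1.11 to 1.24 that leaves room for differences of more than 2-fold in either direction. The other 8 genes lay between -0.49 and 0.29. In all, 3 of 10 genes were higher with efruxifermin, beside 44.4% of all genes. By limma 0 of 10 were called, as were 0% of all genes in either direction. edgeR (0% of all genes) and DESeq2 (0.0828% of the 16903 genes with an adjusted p) also called 0 of the 10.

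Both treated groups were also set against the same 4 healthy mice. On the RPM scale 9 of 10 genes were higher with FGF21 AAV (32.8% of all genes; median log2 change 0.73, all genes -0.22) and 10 of 10 with efruxifermin (29.4%; 0.48, all genes -0.30). Relative to the adipocyte markers 6 and 8 of the 10 were higher, where the median log2 change of all genes was -0.67 and -0.55. By limma 0 of 10 were called in either, beside 0.0118% of all genes called higher with FGF21 AAV, 0% with efruxifermin and 0% called lower in both. edgeR (0.00588% and 0% of all genes) and DESeq2 (0.161% and 0.107% of the 14939 genes with an adjusted p) called 0 of the 10 as well. Acacb was the 1 gene of 10 with an unadjusted p under 0.05 in each comparison, and it was higher, where 1.12% and 1.05% of all genes were higher by that measure and 4.22% and 7.02% lower. It was at 44.0, 25.2, 42.4 and 122 RPM in healthy mice, so that healthy mouse 4 alone overlapped the treated groups. The log2 change of Acacb was 1.68 ± 0.52 under FGF21 AAV and 1.22 ± 0.52 under efruxifermin (SE; adjusted p = 0.803 and 0.580 by limma). Scd1 was at 0.95 and 1.02, and Scd2 at -0.58 and 0.51, in the same order.

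The ratio of Scd1 to Scd2 within a library depends on how libraries are scaled only through the 1 RPM added to each value. Both genes encode desaturases of the same reaction, and as near copies of one another their reads could be shared in part, depending on how the authors counted. The ratio does not take out tissue make-up, whose part in it was not tested. After group means were subtracted, the adipocyte marker score had a Pearson's r of 0.81 with Scd1 and 0.35 with Scd2. On the log2 scale the ratio was 4.76, 4.85, 4.45 and 5.36 in healthy mice and 3.71, 2.43, 3.73, 4.94 and 4.57 in tumour controls. FGF21 AAV mice had 6.37, 6.77, 6.07, 6.44 and 6.25, and efruxifermin mice had 5.94, 5.10, 3.75, 6.16 and 5.86. The FGF21 AAV mice were tightly grouped (mean 6.38 ± 0.26, SD) and lay above every tumour control (3.87 ± 0.97) and every healthy mouse (4.86 ± 0.37).

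Under FGF21 AAV the Scd1 to Scd2 ratio was 5.68-fold that of tumour controls (log2 difference 2.51, exact permutation p = 0.00794, the smallest possible, adjusted p = 0.0635 over 12 ratio tests). It was 2.88-fold that of healthy mice (1.52, exact permutation p = 0.0159, adjusted p = 0.0635). Efruxifermin mice (5.36 ± 0.98, SD, n = 5) were 1.49 above tumour controls on the log2 scale (exact permutation p = 0.0317, adjusted p = 0.0952) and 1.02 below FGF21 AAV mice (exact permutation p = 0.0159, adjusted p = 0.0635). Tumour controls were 0.98 below healthy mice by the same measure (log2 difference -0.98, exact permutation p = 0.111, adjusted p = 0.267). None of these passed 0.05 after adjustment. Without tumour control 4 and efruxifermin 3, efruxifermin was 2.15 above tumour controls and the difference from FGF21 AAV was -0.62. For Acaca to Acacb the exact permutation p was 0.317 or above in all 6 comparisons.

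**Figure D3:**
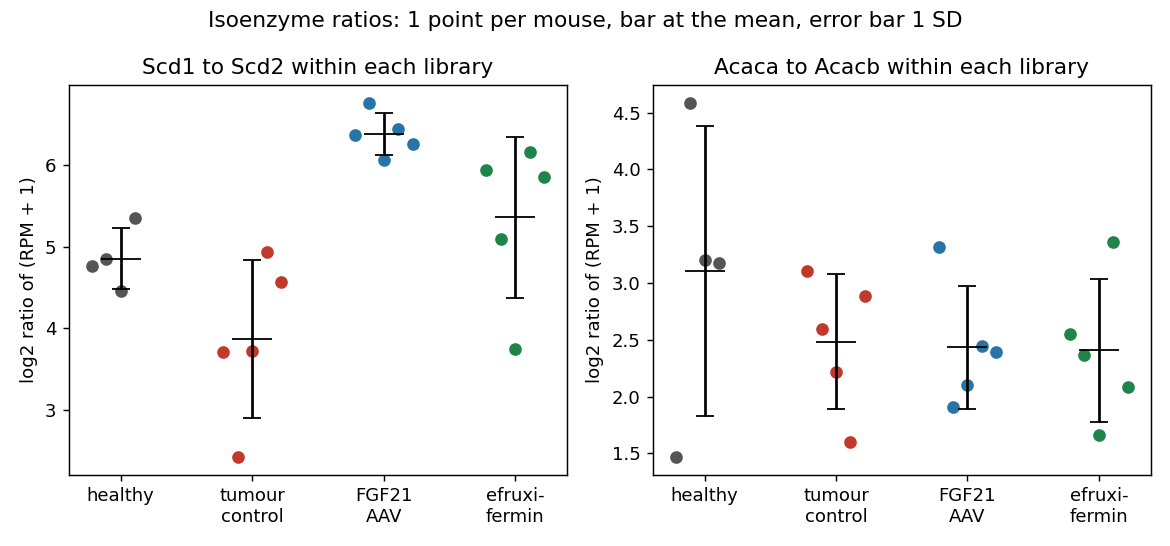
Log2 ratio of Scd1 to Scd2 (left) and of Acaca to Acacb (right) within each library, with 1 point per mouse, a bar at the group mean and error bars of 1 SD (n = 4 or 5). The 5 FGF21 AAV mice lie between 6.07 and 6.77 for Scd1 to Scd2, above all healthy mice and tumour controls, while the Acaca to Acacb ratios of all groups overlap.

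Most of the spread in these genes lay between mice of one group. Of the sum of squares over 19 mice, the 4 groups accounted for 49.1% in Scd1 and 43.5% in Acacb, for 12.2% to 27.2% in Acaca, Scd2, Srebf1, Mlxipl, Fasn, Elovl6 and Me1, and for 2.28% in Acly. The median over all genes tested was 18.9%. The same mice tended to be low or high throughout. Healthy mouse 1 was the lowest of its group for 9 of 10 genes, and tumour control 2, FGF21 AAV 3 and efruxifermin 3 for 7 of 10 each. Tumour control 5 was the highest for 9, and healthy mouse 4 and efruxifermin 2 for 8 each.

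After group means were subtracted, the genes were correlated over the 19 libraries (55 relations computed, permutation within groups). For Fasn and Acly Pearson's r was 0.96 and Spearman's rho 0.96 (permutation p = 1e-05 for each, the smallest possible; adjusted 5.50e-05 and 5.00e-05). Without the 2 libraries farthest from the median r was 0.97, and it was 0.95 in the 11 libraries with a B cell score above 3 and 0.98 in the 8 others. For Fasn and Scd1 r was 0.95 and rho 0.95 with the same p, 0.95 without the 2 farthest libraries, and 0.95 and 0.98 in the 2 sets of libraries. The synthase, the lyase and the main desaturase thus varied together from mouse to mouse within groups.

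Of the 45 pairs among the 10 genes, 35 passed an adjusted p of 0.05 in the permutation test of r, with a median r of 0.73 and a range of 0.13 to 0.96. How many pairs of other genes would pass in these libraries was not computed, so the count cannot be set against a background. The 10 pairs among Fasn, Acly, Acaca, Elovl6 and Me1, a subset picked after the values were seen, had r of 0.88 to 0.96. Fasn and Srebf1 had an r of 0.78 and a rho of 0.77 (permutation p = 0.00088 and 0.00064, adjusted 0.0022 and 0.00168), with 0.69 without the 2 farthest libraries and 0.65 and 0.90 in libraries above and below the B cell limit. Mlxipl passed with 0 of the other 9 genes, and its r ran from 0.14 to 0.53. In libraries above the B cell limit its r ran from 0.33 (Scd2) to 0.78 (Srebf1), and in those below from 0.076 (Acacb) to 0.43 (Elovl6). Scd1 and Scd2 had an r of 0.71 and a rho of 0.72 (permutation p = 0.00373 and 0.00375, adjusted 0.00707 and 0.00687), 0.61 without the 2 farthest, and 0.63 and 0.74 in the 2 sets. The lowest r, 0.13, was that of Scd2 with Acacb (rho 0.16, permutation p = 0.578 and 0.486, adjusted 0.578 and 0.505).

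The adipocyte marker score moved with the pathway as well. Its r passed an adjusted p of 0.05 with 8 of the 10 genes, the exceptions being Scd2 (0.35) and Mlxipl (0.18). With Fasn r was 0.81 and rho 0.76 (permutation p = 0.00045 and 0.0005, adjusted 0.00136 and 0.00145). Without the 2 farthest libraries this r was 0.65, and it was 0.72 and 0.90 in libraries above and below the B cell limit. With Scd1 r was likewise 0.81 and rho 0.75 (permutation p = 0.0005 and 0.00088, adjusted 0.00136 and 0.0021), with 0.63 without the 2 farthest and 0.67 and 0.95 in the 2 sets. The libraries share depth and tissue make-up across all genes, and what part these have in the relations was not tested.

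**Figure D4:**
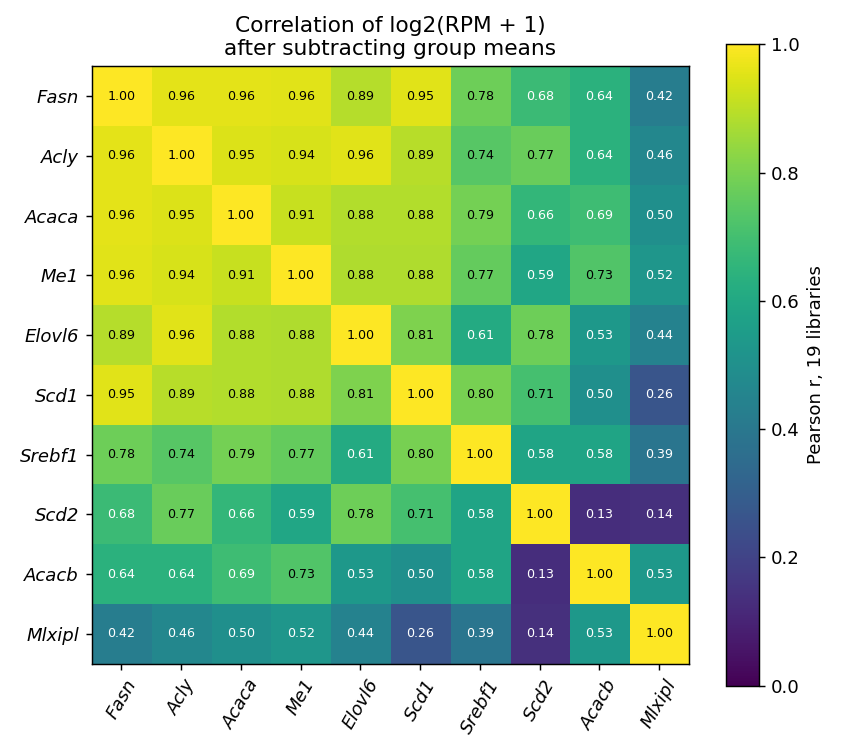
Pearson's r of log2(RPM + 1) between each pair of the 10 genes over 19 libraries after group means were subtracted, coloured from 0 to 1. Fasn, Acly, Acaca, Me1, Elovl6 and Scd1 form a block from 0.81 to 0.96, and the row of Mlxipl stays at 0.53 or below.

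The genes whose level across the 19 libraries was most like the mean of the 10 (mean of z scores, 12169 genes of mean RPM of 5 or more compared) were Tkt (r = 0.97), Pcx (0.96), Gpt (0.95), Slc25a1 (0.94), Agpat2 (0.93) and Thrsp (0.92). With group means subtracted they were Tkt (0.98), Thrsp (0.96), Pcx (0.95), Slc25a1 (0.95), Gpt (0.95) and Acss2 (0.93). Tkt encodes transketolase of the pentose phosphate pathway, Pcx pyruvate carboxylase, Slc25a1 the mitochondrial citrate carrier, Acss2 the cytosolic acetyl-CoA synthetase, Gpt an alanine aminotransferase and Agpat2 an acyltransferase of glycerolipid synthesis. Thrsp encodes Spot 14, a small protein of lipogenic tissues. These r values are descriptions over libraries that share depth and make-up. The fat cell genes Plin1 (0.79) and Adipoq (0.75) ranked 54 and 93 over the 19 libraries.

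Reference promoter sequences were searched for letters known to be bound by the pathway's regulators, since the genes varied together. RefSeq windows (mouse, GRCm38.p6; 250 bases before each annotated start) matched 8 of the 10 genes, in 12 windows, and Scd1 and Scd2 had none. Fasn is shown because it varied with most of the other genes, and both annotated starts of Mlxipl because it varied with none past the threshold; both were picked with these values known. Capitals mark the CCAAT box, the E-box CACGTG and the loose sterol element TCACNCCAC on either strand, and each sequence runs 5′ to 3′ along the gene and ends at the base before the start.
Fasn, minus strand, chr11:120824548-120824797: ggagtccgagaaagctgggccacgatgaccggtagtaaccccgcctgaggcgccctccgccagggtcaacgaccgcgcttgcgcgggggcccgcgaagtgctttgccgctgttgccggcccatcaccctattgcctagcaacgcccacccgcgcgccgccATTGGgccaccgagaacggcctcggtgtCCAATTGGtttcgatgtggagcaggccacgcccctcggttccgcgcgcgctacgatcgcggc
Mlxipl, upstream start, plus strand, chr5:135089640-135089889: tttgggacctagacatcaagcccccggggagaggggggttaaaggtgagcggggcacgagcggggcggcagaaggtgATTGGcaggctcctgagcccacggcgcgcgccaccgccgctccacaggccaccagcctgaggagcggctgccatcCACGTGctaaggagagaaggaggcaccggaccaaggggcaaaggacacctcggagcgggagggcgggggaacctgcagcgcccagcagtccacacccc
Mlxipl, downstream start, plus strand, chr5:135106641-135106890: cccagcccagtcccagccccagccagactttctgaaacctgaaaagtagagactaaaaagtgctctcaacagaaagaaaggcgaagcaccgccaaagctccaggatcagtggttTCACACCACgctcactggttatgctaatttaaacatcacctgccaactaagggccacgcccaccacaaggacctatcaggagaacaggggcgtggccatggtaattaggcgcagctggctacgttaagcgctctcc

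In the Fasn window CCAAT, the letters bound by NF-Y, occurred 3 times, beginning 90, 62 and 59 bases before the start (positions -90, -62 and -59), the latter matches sharing bases with each other on opposite strands. Over all 12 windows CCAAT was found in 6, where 33.8% of 32851 RefSeq windows of this length held it. The GC box letters GGGCGG, bound by Sp1, were in 5 of 12 (32.7% of all windows). The E-box CACGTG was in 1 of 12, the upstream Mlxipl window, where 6.02% of all windows held it, and the wider CANNTG, which includes CACGTG, was in 8 of 12 (66.2%). The sterol element of SREBP1 in its strict form, the classical one of the LDL receptor promoter, was in 0 of 12 (0.0731% of all windows) and the looser TCACNCCAC, which any strict match also holds, in 1 of 12 (1.05%), the downstream Mlxipl window. Both strands were searched. A match is a description of letters, and a missing match says only that the letters are not in these 250 bases.

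The surrounding pathway was followed through 6 further lists, in which limma called 0 genes in any comparison, at the background shares given above. The genes given with values below are the 2 of smallest p in each list. NADPH supply held 7 genes, all tested. In tumour controls against healthy mice 6 of 7 were lower, with a median log2 change of -0.76, where 38.8% of all genes were higher. Against tumour controls the median was 0.55 with FGF21 AAV and 0.62 with efruxifermin. Idh1 and G6pdx, 2 of the 7, were lower in tumour controls than in healthy mice at an unadjusted limma p under 0.05, beside 7.49% of all genes. Idh1, cytosolic isocitrate dehydrogenase, averaged 427 RPM in healthy mice and 159 ± 42.2 (SD, n = 5) in tumour controls, a log2 change of -1.36 ± 0.38 (SE; adjusted p = 0.189 by limma). G6pdx, which opens the pentose phosphate pathway, was lower in tumour controls by the value -1.10 ± 0.42 and higher than in them under efruxifermin by 1.26 ± 0.40 and under FGF21 AAV by 0.96 ± 0.40 (log2 ± SE; adjusted p = 0.408, 0.151 and 0.245 by limma).

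Of the 9 genes of carbon supply and citrate export 8 were tested, Slc13a5 being too low. All 8 were lower in tumour controls than in healthy mice (median -0.59), where 38.8% of all genes were higher. With either treatment all 8 were higher than in tumour controls (0.77 for FGF21 AAV and 0.74 for efruxifermin), as were 47.2% and 41.7% of all genes. Slc2a4, the insulin-responsive glucose transporter GLUT4, which muscle also expresses, differed by -1.78 ± 0.68 in tumour controls and by 1.50 ± 0.64 under FGF21 AAV (log2 ± SE; adjusted p = 0.404 and 0.257 by limma). Citrate synthase, Cs, was at -0.69 ± 0.27 in tumour controls and 0.05 ± 0.26 under FGF21 AAV (adjusted p = 0.419 and 0.951 by limma).

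The 13 control genes of SREBP1, ChREBP and the liver X receptors had medians of -0.08, -0.05 and 0.11 in tumour control against healthy and in FGF21 AAV and efruxifermin against tumour control. Over all genes the medians were -0.16, -0.048 and -0.14. Single genes of the list ran from -0.61 to 0.50, from -0.63 to 0.68 and from -0.62 to 1.46. Under efruxifermin 1 of the 13 lay above tumour controls without overlap, as did 1.06% of all genes. Nr1h3, the liver X receptor alpha gene that drives Srebf1, was higher by 0.68 ± 0.32 under FGF21 AAV and by 0.69 ± 0.32 under efruxifermin than in tumour controls (log2 ± SE; adjusted p = 0.302 and 0.334 by limma). Usf2, an E-box factor, was at -0.50 ± 0.28 and -0.57 ± 0.28 in the same comparisons (adjusted p = 0.385 and 0.361 by limma). The 8 genes of carboxylase control and cofactors had medians of -0.21, 0.11 and 0.09. Thrsp differed by 0.92 ± 0.60 under FGF21 AAV and by 0.61 ± 0.60 under efruxifermin, and Hlcs, which attaches biotin to the carboxylases, by -0.45 ± 0.65 and -0.99 ± 0.65 (log2 ± SE; adjusted p of 0.472 to 0.782 by limma).

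Of the 11 genes of further elongation and desaturation 8 were tested, Elovl3, Scd3 and Scd4 being too low, with medians of -0.44, 0.30 and -0.037 in the same 3 comparisons. Fads1, the delta-5 desaturase, was at 21.6 to 82.7 RPM in tumour controls. Under FGF21 AAV it was at 84.5 to 149 RPM, higher without overlap, as were 2.71% of all genes. Its log2 change was 1.18 ± 0.40 there and 0.25 ± 0.40 under efruxifermin (SE; adjusted p = 0.159 and 0.821 by limma), and efruxifermin against FGF21 AAV gave -0.93 ± 0.40 (adjusted p = 0.835 by limma). Hsd17b12, the reductase of the elongation cycle, was higher by 1.07 ± 0.39 and 0.90 ± 0.39 under the 2 treatments (log2 ± SE; adjusted p = 0.188 and 0.307 by limma).

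All 7 measured targets of SREBP1 and ChREBP (of 8 listed) were lower in tumour controls than in healthy mice (median -0.80). They were higher than in tumour controls under FGF21 AAV (0.80) and efruxifermin (0.91). Of all genes 38.8%, 47.2% and 41.7% were higher in these comparisons, in that order. Gpam, the mitochondrial acyltransferase that commits fatty acids to triglyceride, was at 176 to 254 RPM in healthy mice. In tumour controls it was at 51.1 to 154 RPM, lower without overlap, as were 3.66% of all genes. Its log2 change was -1.23 ± 0.30 (SE; adjusted p = 0.122 by limma), and the changes against tumour controls were 0.75 ± 0.28 with FGF21 AAV and 0.45 ± 0.28 with efruxifermin (adjusted p = 0.198 and 0.491 by limma). Agpat2 was higher by 1.64 ± 0.60 and 1.54 ± 0.60 under the 2 treatments (log2 ± SE), with an adjusted p of 0.184 by limma for FGF21 AAV. These directions are those on the RPM scale, whereas scaling to the adipocyte markers put the median log2 change of all genes tested at 1.13, -1.77 and -1.66 in the same 3 comparisons, where it was -0.16, -0.048 and -0.14 in RPM.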

How the data were processed

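Each library came from the whole inguinal fat of 1 mouse, so p-values measure the spread between mice. Per the labels, libraries were made with the Lexogen QuantSeq 3' FWD kit. The submitters' processing notes name the tools FastQC, cutadapt, HISAT2 and HTSeq and the build GRCm39; versions and strand setting are not given in the sources used here, so reads of antisense or overlapping genes cannot be told apart. The deposited table holds RPM scaled to library size by the authors, with 1 column per mouse and 0 other per-sample columns. Values of up to 1000 reads were multiples of the value of 1 read (100% within 0.05 of a whole number in 19 libraries), so whole reads were recovered. Where a symbol was repeated, the row of highest mean RPM was used.

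Genes with RPM of 1 or more in 4 libraries were tested on log2(RPM + 1) by limma 3.58.1 (R 4.3.3, trend), with the 4 groups in one fit and Benjamini-Hochberg adjustment over 17013 genes, two-sided, at 0.05. Fold changes on this scale understate the change of low genes. Ratios and scores were compared by exact permutation tests, and relations by 100000 permutations within groups. Alternatives were pseudocounts 0.25 and 5, other filters, TMM and adipocyte marker scaling, edgeR 4.0.16 and DESeq2 1.42.0 on the recovered reads (edgeR called 1, 8, 46, 0, 1 and 0 genes and DESeq2 39, 488, 399, 14, 24 and 16, in the order tumour control against healthy, FGF21 AAV and efruxifermin each against tumour control, drug against virus, and both against healthy), covariates, subsets of libraries, a replicate block and leaving out each library. Leaving out tumour control 4 with efruxifermin 3, and the test of the adipocyte score, were chosen after seeing the data. The procedure was tested on simulated data in which genes were drawn independently of each other. Shared tissue make-up was not part of that simulation, so it cannot speak to its effect on the calls.

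The 10 genes and all lists were chosen with earlier results of these data known. Beside the 10 genes, the text names the 2 genes of smallest p of each list, the 6 genes of highest likeness on each scale, and genes said to be chosen by their values; Plin1 and Adipoq are named as fat cell genes. Sequences are RefSeq's (GRCm38.p6), another build than the authors', so no coordinates are given beside those of the windows. Plots were made in python 3.11.15 (matplotlib 3.10.9).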

Additional observations from a re-analysis of the deposited data

Results flagged for a closer look

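In 40 sets of values (10 genes in 4 groups), 2 held a mouse that stood apart from the rest of its group by Dixon's test at the 95% level, about the number that chance gives at 1 in 20. Acacb in efruxifermin 2 was at 249 RPM, with the next mouse of the group at 114 RPM. Mlxipl in tumour control 5 was at 185 RPM, with the next mouse at 64.2 RPM. Efruxifermin 2 was the highest of its group for 8 of the 10 genes and tumour control 5 for 9 of them.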

How the results depend on the processing

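The order of comparisons throughout is tumour control against healthy, then FGF21 AAV and efruxifermin each against tumour control, then drug against virus, then both treatments against healthy. All genes called by limma were 8, 96, 130, 0, 2 and 0. Calls of the 10 genes depended on the setting; the cause was not tested. Scaling to the adipocyte markers called 0, 8311 and 7417 genes in the first 3 comparisons and 0 in FGF21 AAV against healthy. There 2 lipogenic genes were called lower under FGF21 AAV, Acly (-1.56) and Scd2 (-2.39), and 1 under efruxifermin, Acly (-1.49). Against healthy mice the tumour controls then had Fasn at 0.88, Acaca 1.01, Acly 1.26, Scd1 0.31, Scd2 1.28, Elovl6 1.33, Srebf1 1.33, Mlxipl 0.98 and Me1 0.79. FGF21 AAV then had Fasn at -0.68, Acaca -0.56, Acacb -0.48, Elovl6 -1.06, Srebf1 -1.18, Mlxipl -1.45 and Me1 -0.88. Efruxifermin then had Fasn at -0.90, Acaca -0.80, Acacb -0.69, Scd2 -1.06, Elovl6 -1.01, Srebf1 -1.18, Mlxipl -0.91 and Me1 -0.79. TMM scaling put the median log2 change of all genes at -0.060 in the first comparison (-0.16 in RPM) and at -0.10 in FGF21 AAV against healthy (-0.22 in RPM), and called 3 and 4 genes there.

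Pseudocount 5 called 13 and 55 genes in the first 2 comparisons, and the Acaca to Acacb difference under FGF21 AAV was 0.031. With no filter the calls were 14, 14 and 57, then 6 and 4 against healthy. edgeR called 1, 8 and 46, and 1 in FGF21 AAV against healthy, and DESeq2 called 39, 488, 399, 14, 24 and 16. DESeq2 called 1 lipogenic gene (Scd1) under each treatment. Srebf1 in tumour controls was 0.049 by edgeR and 0.093 by DESeq2, and Mlxipl 0.056 and 0.084. Fits of the 2 groups alone called 1, 60 and 1, and 5 in FGF21 AAV against healthy, with 1 lipogenic gene under FGF21 AAV. With B cell and muscle covariates the calls were 13, 2 and 77, and 1 in FGF21 AAV against healthy; Acly under FGF21 AAV was -0.35, and Acacb between the treatments 0.0052. Libraries with a B cell score above 3 gave 0, 1 and 298 calls, and 0 in FGF21 AAV against healthy, with 1 lipogenic gene under efruxifermin. Acacb between the treatments was 0.32 there and Acaca to Acacb under FGF21 AAV 0.0079. Libraries at 3 or below called 0 genes throughout, with 1 tumour control assumed to vary like the rest. There tumour controls had Fasn at 0.028, Acly 0.13, Elovl6 0.40, Srebf1 0.80, Mlxipl 0.14 and Me1 0.31, and FGF21 AAV had Scd2 at 0.12. Efruxifermin had Fasn at -0.51, Acacb -0.27, Acly -0.72, Srebf1 -0.60 and Me1 -0.78, Scd1 was -0.72 between the treatments, and the log2 ratio of Scd1 to Scd2 differed from that of healthy mice by -0.22.

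Without tumour control 4 and efruxifermin 3 the calls were 230, 1760 and 732, then 9 and 8 against healthy. There 2 lipogenic genes (Scd1 and Acacb) were called under FGF21 AAV and 1 (Scd1) under efruxifermin. Acacb in tumour controls was -0.095, and between the treatments Acaca to Acacb was 0.16 and the adipocyte score 0.29. Leaving out 1 library at a time gave 1 to 64, 7 to 1015, 4 to 599, 0 to 2, 1 to 8 and 0 to 1 calls, with 0 to 2 lipogenic genes under FGF21 AAV and 0 to 1 under efruxifermin. Under efruxifermin the 1 gene was Scd1, without tumour control 4, tumour control 5 or efruxifermin 3. In tumour controls Acacb then ran from -0.16 to 0.58, Elovl6 from -0.86 to 0.40, Srebf1 from -0.49 to 0.029 and Acly from -0.85 to 0.29. Acly under efruxifermin ran from -0.21 to 0.77 and Scd1 between the treatments from -0.30 to 0.66. Acaca to Acacb ran from -0.27 to 0.11 under FGF21 AAV, -0.32 to 0.11 under efruxifermin and -0.27 to 0.19 between the treatments. The adipocyte score between the treatments ran from -0.46 to 0.29; its tumour control difference, from -1.75 to -1.05, no longer passed without any 1 mouse, when fewer mice also raise the smallest exact p.

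The labels state no pairing by replicate number. Deviations from group means correlated above 0.1 in 8 of 27 same-numbered pairs (median -0.0199) and in 24 of 108 other pairs (-0.00839), and for 7 of 19 libraries the best partner had the same number. With the replicate block the calls were 40 and 150 in the first 2 comparisons, and 1 in FGF21 AAV against healthy, with 1 lipogenic gene (Scd1, limma adjusted p = 0.0491) under efruxifermin.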
